A study of Mus musculus with 8 samples.

Results

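Keratins are the intermediate filament proteins of epithelial cells, and the 8 genes described here are keratins of simple, transitional and stratified epithelia: Krt5, Krt7, Krt8, Krt15, Krt18, Krt19, Krt20 and Krt23. They were chosen by name, with their differences between the groups already known, as the probes whose RefSeq accession belongs to one of these genes. This gave 9 probes, 2 of them for Krt5, out of 55681 probes on the array, and 8 of 20887 named genes. A keratin filament is built from pairs of a type I and a type II chain. Krt5, Krt7 and Krt8 encode type II chains, and Krt15, Krt18, Krt19, Krt20 and Krt23 type I chains. In the kidney, Krt8 and Krt18 form the common pair of tubular epithelium, Krt7 and Krt19 are best known from the collecting duct and the urothelium, Krt20 from the umbrella cells of the urothelium and from injured tubules, and Krt5 from the basal urothelium. Krt15 is known as a basal keratin of stratified epithelia.

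RNA was measured in whole kidneys of C57BL/6 mouse embryos at embryonic day 16.5. The KO group held 4 kidney pairs in which Dot1 was conditionally deleted in the nephron progenitors that express Six2. Dot1 was read as Dot1l, the gene of the histone H3 lysine 79 methyltransferase. The WT group held 4 wildtype kidney pairs, called control in the labels. The Cre line and the alleles are not given in the sources used here. On every array the sample carried Cy5 (red) and RNA of the WT1 kidneys carried Cy3 (green), so each value below is a log2 ratio of a sample over WT1 RNA. On the array labelled WT1 both dyes carried this same RNA, so its ratios show no difference between samples, and no dyes were swapped. The study compared the groups to find which genes differ in kidneys with Dot1-deficient progenitors. The collecting duct and the urothelium of the ureter derive from the ureteric bud, outside the Six2 lineage. In whole tissue, fewer cells of a type and less RNA per cell cannot be told apart.

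Kidney markers were present: Pax2, Wt1, Six2, Nphs1, Umod, Lrp2 and Cdh16 were all well above background on at least 4 arrays. Of these 7, only Wt1 passed in limma, and it fell (-0.40 ± 0.09, adjusted p = 0.0355). By any amount 4 were higher and 3 lower in KO. Umod (0.75 ± 0.20, adjusted p = 0.0891) and Cdh16 (0.36 ± 0.10, adjusted p = 0.0748) were higher without passing. The Dot1l probe had log2 ratios of -0.21 to -0.04 on the KO arrays and of -0.23 to -0.09 on the WT arrays, a difference of 0.03 ± 0.08 (SE, n = 4 per group), and whether it lies in the deleted part was not analysed here. The WT1 and KO1 arrays stood apart. Their green signals, from the same RNA on all arrays, had a median r of 0.558 (WT1) and 0.903 (KO1) with the other 6. Among those 6 it was 0.996 to 0.997. Their red negative-control spots had medians of 1361 units on WT1 and 478.2 on KO1, against 58 to 61 on the other 6, so the keratin results are given with and without this pair. All KO embryos and WT2 were male by Xist and Ddx3y, the other 3 WT embryos were female, and all KO arrays lay in 1 row of the slide and all WT arrays in the other, so slide row and group cannot be told apart.

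Of the 8 keratins, 7 were bright enough to be tested among 13982 genes, and 6 of these had a higher mean in KO. Krt20 and Krt19 passed the threshold of limma (adjusted p under 0.05 over all genes), both higher in KO. Across all genes 2.12% passed, and 1.57% passed as higher in KO. These 2 were also the keratins with all 4 KO arrays above all 4 WT arrays, as were 6.83% of all genes, and 9.29% of all genes had groups that did not overlap in either direction. The members were chosen with this contrast known, so nothing is read from their counts or from their median, given next as a description. The 7 keratins had a median difference of 0.29 on the log2 scale, against 0.03 for all genes tested, of which 59.3% were higher in KO. Without WT1 and KO1 these medians were 0.38 and 0.02.

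**Figure D1:**
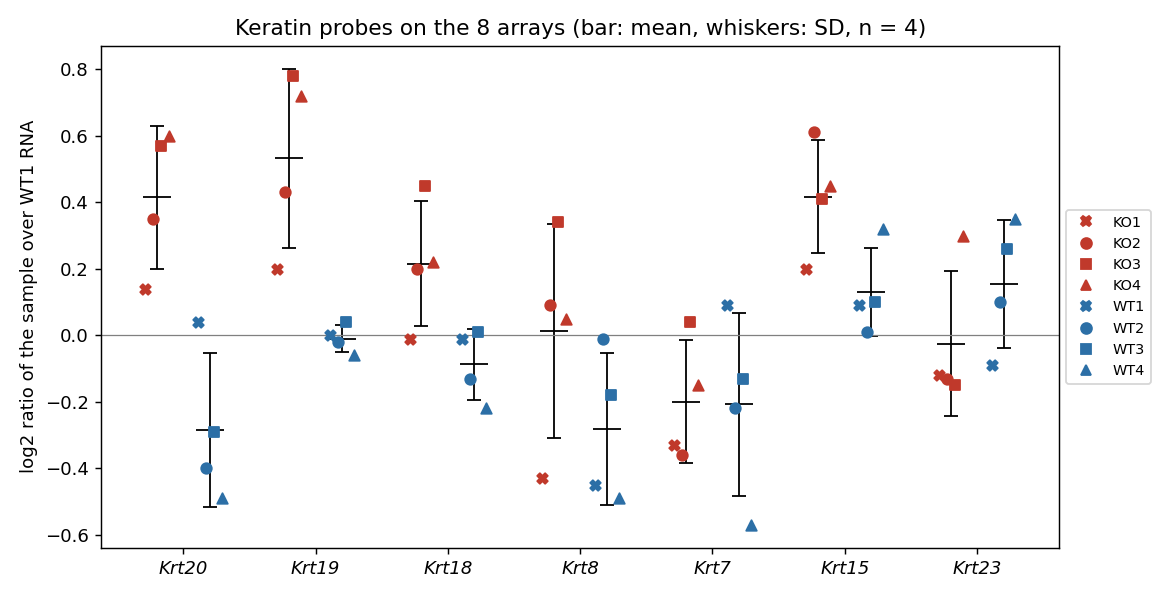
The log2 ratio over WT1 RNA (y axis) is plotted for the 7 tested keratins, with KO arrays on the left and WT arrays on the right of each pair, points for single arrays, a bar for the mean and whiskers for the SD of 4 arrays. The groups are apart for Krt20 and Krt19, apart but for KO1 for Krt18, Krt8 and Krt15, apart in the other direction but for KO4 for Krt23, and mixed for Krt7.

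Krt20 had the largest difference of the 7 tested keratins, though not with the red channel alone, where it differed by -0.04 and Krt8 by 0.84. Without WT1 and KO1, a fit added later, the red channel alone gave 1.00 ± 0.13 for Krt20 and 0.39 ± 0.15 for Krt8. The log2 ratios of Krt20 were 0.14, 0.35, 0.57 and 0.60 on KO1 to KO4, against 0.04, -0.40, -0.29 and -0.49 on WT1 to WT4. Every KO array thus lay above every WT array, with KO1 and WT1 closest to each other. The difference was 0.70 ± 0.13 (moderated SE, n = 4 per group), a 1.62-fold higher level in KO. It was 0.90 ± 0.10 without WT1 and KO1. Krt20 was a dim probe: before correction, KO2 to KO4 read 251.5 to 434 red units, against 160.5 to 179 for WT2 to WT4. In green, where all arrays carried the same WT1 RNA, KO2 to KO4 read 80 to 98.5 units, against 93.5 to 102 for WT2 to WT4. On the WT1 array the same probe read 13069 units in red and 3478.5 in green.

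Krt19, which lacks most of the tail domain found in other keratins, was the second keratin that passed. It had log2 ratios of 0.20, 0.43, 0.78 and 0.72 on KO1 to KO4, against 0.00, -0.02, 0.04 and -0.06 on WT1 to WT4. The WT arrays were tightly grouped (SD 0.04) and the KO arrays spread more widely (SD 0.27), with KO1 lowest. The difference was 0.54 ± 0.12, or 1.46-fold, and 0.65 ± 0.11 without WT1 and KO1. In red, KO2 to KO4 read 5021 to 9112.5 units, against 4652 to 6313 for WT2 to WT4. For single channels, the loess ratios were kept and the mean brightness of the 2 channels was quantile normalized across all 8 arrays. Each channel was then rebuilt from ratio and brightness, so the 2 channels are not independent of the ratio. Averaged over these 6 arrays, the red signal of Krt19 differed by 0.63 and the green signal by -0.03. That of Krt20 differed by 0.86 in red and -0.04 in green. Over all 8 arrays the split between the channels was another one, with 0.41 in red and -0.13 in green for Krt19, and 0.01 in red and -0.69 in green for Krt20.

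**Figure D2:**
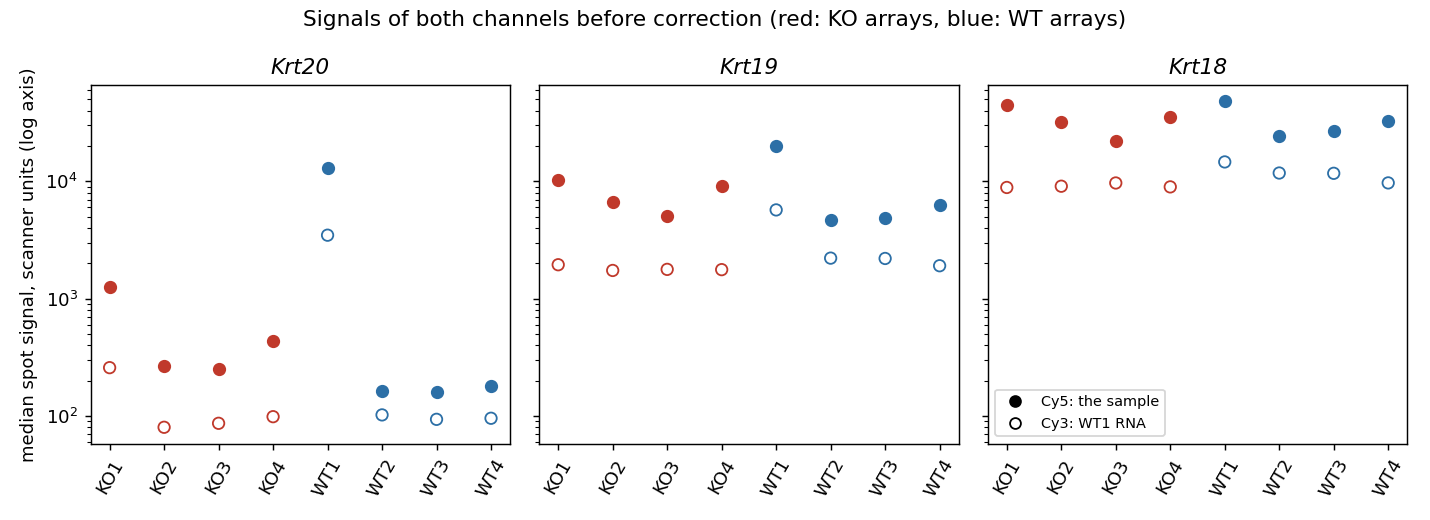
Median spot signals in scanner units before correction (log axis) are shown for Krt20, Krt19 and Krt18 on each array, with filled points for the sample in Cy5 and open points for WT1 RNA in Cy3. For Krt20 the WT1 array reads 13069 units in Cy5 and 3478.5 in Cy3, while the 6 arrays other than WT1 and KO1 read 80 to 102 units in Cy3.

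The calls of both genes changed with single arrays and with the processing. With each array left out in turn, Krt20 passed in 5 of 8 fits, not without WT2, WT4 or KO4, and its difference lay between 0.63 and 0.81. Krt19 passed in 1 of 8 fits, without KO1, with differences of 0.46 to 0.65. With sex as a term, which sets the KO arrays against WT2 alone, neither passed, at 0.81 ± 0.21 for Krt20 and 0.55 ± 0.20 for Krt19. Neither passed with the scanner software's own ratios (1.11 ± 0.23 for Krt20 and 0.52 ± 0.12 for Krt19) or with median centring in place of loess (0.81 ± 0.27 and 0.60 ± 0.35). The red channel alone, over all 8 arrays, turned Krt20 to -0.04 ± 0.72 and gave 0.39 ± 0.24 for Krt19, and neither passed.

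Krt18 and Krt8 encode the 2 chains of the common simple-epithelial pair and are neighbouring genes. The log2 ratios of Krt18 were -0.01, 0.20, 0.45 and 0.22 on KO1 to KO4, against -0.01, -0.13, 0.01 and -0.22 on WT1 to WT4. KO2 to KO4 lay above every WT array and KO1 lay among them, a difference of 0.30 ± 0.11 that did not pass. Krt8 had -0.43, 0.09, 0.34 and 0.05 on KO1 to KO4, against -0.45, -0.01, -0.18 and -0.49 on WT1 to WT4. Here too KO2 to KO4 were above the WT arrays, KO1 was nearly as low as WT4 and WT1, and the difference of 0.29 ± 0.16 did not pass. With the same RNA in both dyes on WT1, its -0.45 does not show a low Krt8 level in that sample. Without WT1 and KO1 the differences were 0.40 ± 0.10 for Krt18 and 0.38 ± 0.14 for Krt8. Only Krt18 changed its call, and only when the replicate number was also a block in that fit without WT1 and KO1 (0.40 ± 0.08). Against the male WT2 array alone, through the sex term, Krt8 differed by 0.02 ± 0.23 and Krt18 by 0.34 ± 0.17.

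Krt7, a type II keratin of duct epithelia, had nearly equal means in the groups. Its log2 ratios were -0.33, -0.36, 0.04 and -0.15 on KO1 to KO4, against 0.09, -0.22, -0.13 and -0.57 on WT1 to WT4. The arrays of the 2 groups were mixed, with WT4 lowest and WT1 highest of all 8. The difference was 0.01 ± 0.14, 0.15 ± 0.14 without WT1 and KO1, and -0.19 ± 0.11 without WT4 and KO3.

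Krt15 and Krt5 are keratins of basal cells in layered epithelia. Krt15 lies next to Krt19 on chromosome 11 and had log2 ratios of 0.20, 0.61, 0.41 and 0.45 on KO1 to KO4, against 0.09, 0.01, 0.10 and 0.32 on WT1 to WT4. Only KO1 lay within the range of the WT arrays. The difference of 0.29 ± 0.11 did not pass, and it was 0.35 ± 0.11 without WT1 and KO1. Its probe was dim, and KO2 to KO4 read 160.5 to 253 red units, against 127.5 to 194 for WT2 to WT4. Krt5 was not tested. Its first probe was not well above background on any array, and its second was so only on WT1, where the red signal was 14452 units. On the 6 arrays without WT1 and KO1, both probes read between 53 and 82 red units, beside negative-control medians of 58 to 61. No fold is therefore given for Krt5.

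Krt23, a type I keratin gene next to Krt20 on chromosome 11, was the one tested keratin with a lower mean in KO. Its log2 ratios were -0.12, -0.13, -0.15 and 0.30 on KO1 to KO4, against -0.09, 0.10, 0.26 and 0.35 on WT1 to WT4. KO1 to KO3 lay below every WT array, while KO4 lay among the highest WT arrays. The difference of -0.18 ± 0.13 did not pass, and it was -0.29 without KO4.

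**Figure D3:**
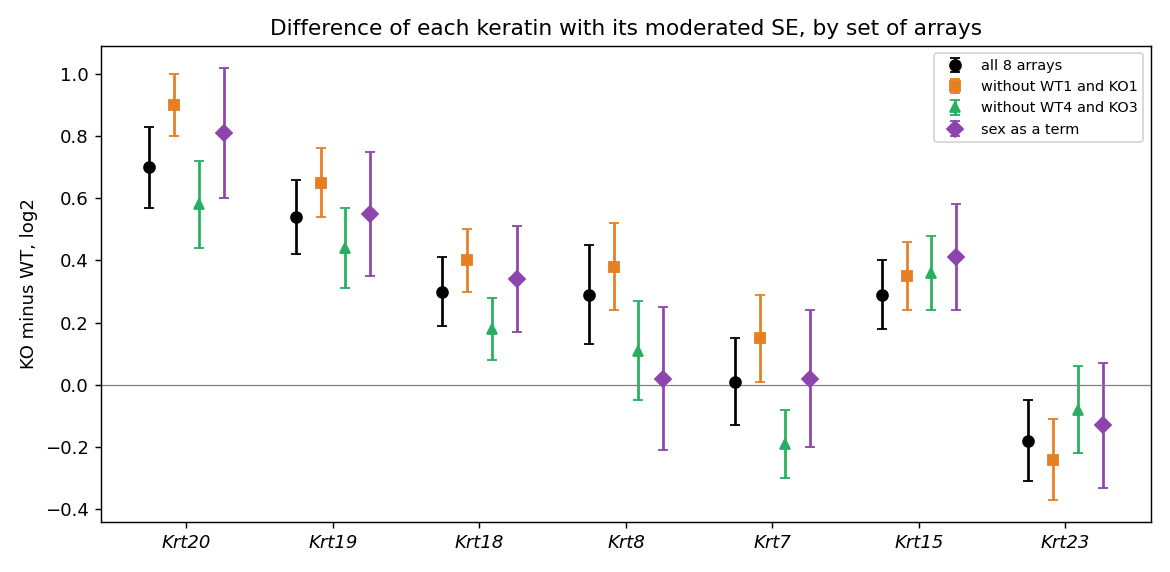
The difference KO minus WT (y axis, log2) with its moderated SE is plotted for each tested keratin with all 8 arrays, without WT1 and KO1, without WT4 and KO3, and with sex as a term. Krt20 stays between 0.58 and 0.90 and Krt19 between 0.44 and 0.65, while Krt8 ranges from 0.02 to 0.38.

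The proximal promoters of 4 members are shown because they form 2 pairs of chromosomal neighbours, Krt20 with Krt23, whose differences had opposite signs, and Krt8 with Krt18, whose differences were 0.29 and 0.30. Each run holds the 150 bases before the annotated start (RefSeq, GRCm38.p6), and capitals mark TATAAA and GGAATG on either strand.
Krt20 (chr11:99438154-99438303, minus strand): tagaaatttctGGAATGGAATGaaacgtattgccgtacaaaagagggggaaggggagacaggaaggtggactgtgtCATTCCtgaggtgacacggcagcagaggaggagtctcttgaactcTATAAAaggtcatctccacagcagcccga
Krt23 (chr11:99493121-99493270, minus strand): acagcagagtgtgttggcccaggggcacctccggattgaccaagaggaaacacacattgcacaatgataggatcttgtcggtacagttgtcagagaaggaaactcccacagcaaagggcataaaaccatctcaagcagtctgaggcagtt
Krt8 (chr15:102004343-102004492, minus strand): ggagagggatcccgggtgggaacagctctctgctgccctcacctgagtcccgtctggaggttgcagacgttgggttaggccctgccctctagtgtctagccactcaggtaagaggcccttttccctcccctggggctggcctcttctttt
Krt18 (chr15:102028066-102028215, plus strand): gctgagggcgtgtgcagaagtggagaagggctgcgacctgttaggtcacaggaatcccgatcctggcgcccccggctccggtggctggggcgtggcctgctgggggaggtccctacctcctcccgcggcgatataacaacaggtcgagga
In the full window of 300 bases per promoter, of which 6 of the 8 members had one, Krt20 held TATAAA once and GGAATG 3 times, 2 of them overlapping by 1 base. These motifs occur in 13.6% and 14.7% of all 32851 promoters. TATAAA was also found in Krt8 across the annotated start, where it overlaps its own match on the other strand. Both matches begin in the last bases of the run shown and end past it, so they are not marked. TGANTCA, which occurs in 7.81% of all promoters, and AACCNGTT, in 2.09%, were not found in the 6 windows. The motifs were picked after the sequences had been seen, and a match is a description of the letters only.

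The keratins also varied within the groups. Among Krt7, Krt8, Krt18, Krt19 and Krt20 the deviations from the group means correlated positively in all 10 pairs, with Pearson's r between 0.36 and 0.85 over 8 arrays and between 0.40 and 0.90 over the 6 arrays without WT1 and KO1. The points share arrays, reference RNA and the dye pair. These 5 genes were not set as a group in the plan, so their split from the other 2 is a description. With group means removed, 6 or 8 arrays leave few free values for each r. The other 2 tested keratins did not share this. Krt15 correlated with these 5 genes at -0.40 to 0.25, and at -0.90 to -0.63 over the 6 arrays. Krt23 correlated with them at -0.41 to 0.28, and at -0.66 to 0.31 over the 6 arrays. KO3 was the highest KO array for 4 of the 7 tested keratins and WT4 the lowest WT array for 5.

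Of 13961 genes with values on all arrays, those with deviations from the group means most like those of Krt19 over the 8 arrays were Ptpn21 (r = 0.988), Acox2 (0.974), which encodes a peroxisomal acyl-CoA oxidase, and Cpne8 (0.974). For Krt20 they were Nat8f5 (0.976), Slc5a10 (0.969), which encodes a sugar transporter, and Trappc8 (0.966). Krt18 was most like Tagln (0.977), the smooth muscle protein transgelin, Sh3tc2 (0.974) and Fbxo17 (0.973). Krt8 was most like Bcl9 (0.992), Mlxipl (0.991) and Rapgef5 (0.987). None of these 12 genes passed between the groups. They had the highest of 13961 correlations over only 8 arrays, a choice that gives high values for unrelated genes too. Whether they vary with the keratins beyond that was not tested.

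Other keratins were mostly dim. Of the 45 other keratin genes on the array, 10 were tested, and 1 rose in limma, Krt36, a type I keratin of hair and nail type in the same cluster as Krt15 and Krt19. It had log2 ratios of 0.35, 0.75, 0.69 and 0.88 on KO1 to KO4, against 0.11, 0.08, 0.11 and 0.29 on WT1 to WT4. No KO array overlapped the WT arrays, and the difference was 0.52 ± 0.11 (adjusted p = 0.0352), with 0.75 at its second probe. Krt36 did not pass in the 7 fits that each left out 1 array other than KO1, nor with the scanner software's ratios, median centring, the red channel alone or sex as a term. The median over the 10 genes was 0.11. Krt42 differed by 0.42 ± 0.13 (adjusted p = 0.131), Krt14, the usual partner of Krt5, by 0.09 ± 0.11, and Krt10 by 0.13 ± 0.09.

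Genes that anchor keratin filaments were examined next. Of 16 tested genes of desmosomes, hemidesmosomes and keratin linkers, 1 rose and none fell (3 at an unadjusted p under 0.05), with a list median of 0.07. The one that rose was Perp, a desmosome component and p53 target. It had log2 ratios of 0.32, 0.49, 0.64 and 0.64 on KO1 to KO4, against -0.20, -0.04, -0.07 and -0.34 on WT1 to WT4, a difference of 0.69 ± 0.10 (adjusted p = 0.0065). The desmoplakin gene Dsp, whose protein ties keratins to desmosomes, differed by 0.09 ± 0.09, and the plectin gene Plec by 0.10 ± 0.12. Of 14 other intermediate filament genes none passed in limma (5 at an unadjusted p under 0.05, as were 14.5% of all genes, median 0.03). The lowest p values were those of Lmnb2 (-0.24 ± 0.09, adjusted p = 0.20) and Nefh (0.26 ± 0.11, adjusted p = 0.264). The tested Nefh probe was dim, and a second, dimmer probe gave -0.08.

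Among 22 genes of epithelial junctions and polarity, 1 rose and none fell, the claudin gene Cldn3 (0.56 ± 0.12, adjusted p = 0.0314), with 4 at an unadjusted p under 0.05, and the median was 0.10. No gene of this list was called in 6 of 8 fits with 1 array left out, all but those without WT3 or KO1, while 2 rose with the replicate number as a block, where 3.18% of all genes rose. Of 23 genes of the ureteric bud and collecting duct, where Krt7, Krt18 and Krt19 are at home, 1 rose (9 at an unadjusted p under 0.05), the sodium pump regulator gene Fxyd4 (0.79 ± 0.16, adjusted p = 0.027), which no longer passed once WT1 and KO1 were left out (0.91 on the log2 scale), nor in 6 of 8 fits with 1 array left out, in which no gene of the list was called. Of all genes, 14.5% had an unadjusted p under 0.05. The median of this list was 0.04, with 14 genes higher and 9 lower by any amount. Gata3, Calb1 and Aqp2 differed by -0.06 ± 0.09, 0.22 ± 0.09 and 0.37 ± 0.38. Of the genes of this list with an unadjusted p under 0.05 in limma, all but Etv4 (-0.31 ± 0.12) and Wnt11 (-0.24 ± 0.10) were higher. Besides Calb1, the higher ones that did not pass were Ret (0.32 ± 0.09), Elf5 (0.33 ± 0.10), Sox9 (0.24 ± 0.08), Wnt9b (0.31 ± 0.11) and Cldn8 (0.60 ± 0.23).

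Markers of other cell types that carry keratins were set beside the members. Of 16 urothelial genes none passed in limma (2 at an unadjusted p under 0.05), the median was 0.05, and the mean log2 ratio of the list was -0.31 to 0.05 on the KO arrays and -0.32 to 0.03 on the WT arrays. The uroplakin genes Upk1a, Upk1b, Upk2 and Upk3a, which define the urothelium, differed by -0.04 ± 0.25, -0.11 ± 0.16, -0.25 ± 0.19 and 0.06 ± 0.22. Grhl3 (-0.44 ± 0.12, adjusted p = 0.0891) and Klf5 (0.33 ± 0.13, adjusted p = 0.24) had the lowest p values of the list, and Snx31 was not well above background on any array. Of 15 genes of stratified epithelium on the array, 4 were tested and none passed (0 at an unadjusted p under 0.05), with list means of -0.11 to 0.12 on KO arrays and -0.13 to 0.13 on WT arrays. Lor differed by -0.22 ± 0.12 (adjusted p = 0.439) and Krt1 by 0.17 ± 0.10 (adjusted p = 0.48), and Krt17, Dsg1a, Sprr3 and Lce1a1 were not well above background on any array. Of 5 mesothelial genes none passed (1 at an unadjusted p under 0.05). The list means were -0.14 to -0.01 on KO arrays and -0.23 to -0.08 on WT arrays. Gpm6a differed by 0.33 ± 0.11 (adjusted p = 0.157) and Cpe by 0.09 ± 0.10 (adjusted p = 0.743), with -0.10 and 0.17 at the other Cpe probes.

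**Figure D4:**
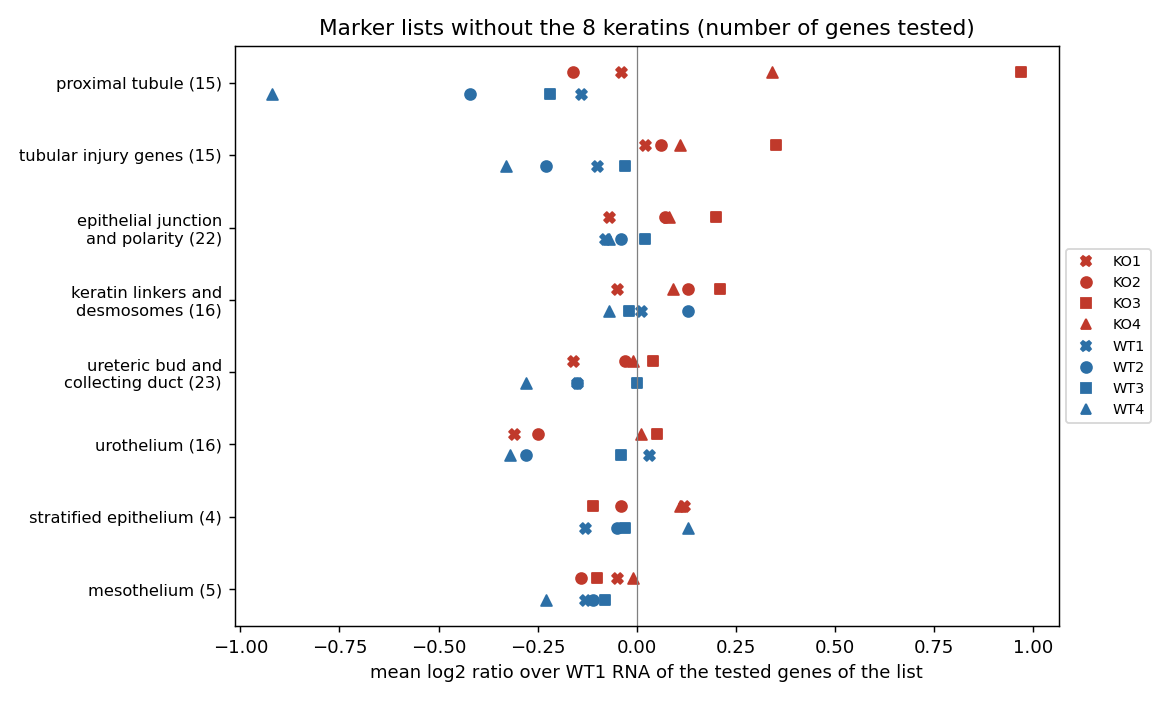
The mean log2 ratio over WT1 RNA of each marker list (x axis) is plotted for single arrays, KO arrays above WT arrays in each row, with the number of tested genes in brackets and none of the 8 keratins included. The proximal tubule list spans -0.16 to 0.97 on KO arrays and -0.92 to -0.14 on WT arrays, while the urothelial means overlap.

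Lists of injured and of proximal tubules had higher medians than the other lists. Of 15 tubular injury genes 1 rose and none fell, Cdkn1a, which encodes the cell cycle inhibitor p21 (0.76 ± 0.13, adjusted p = 0.0108; its second, dim probe gave -0.04), and with the replicate number as a block 5 rose. At an unadjusted p under 0.05 there were 8. Of all genes, 14.5% had such a p, and 3.18% rose with the block. The list median was 0.27, with list means of 0.02 to 0.35 on the KO arrays, against -0.33 to -0.03 on the WT arrays. The osteopontin gene Spp1 differed by 0.67 ± 0.25, the galectin gene Lgals3 by 0.56 ± 0.15 and Lcn2, which encodes neutrophil gelatinase-associated lipocalin, by -0.30 ± 0.17, and none of these passed. Havcr1, the kidney injury molecule gene, was too dim to be tested. Of 15 proximal tubule genes 1 rose, Cyp2e1 (2.24 ± 0.26, adjusted p = 0.00158; 1.23 at its second probe), 5 rose with the block, 10 had an unadjusted p under 0.05, and the list median was 0.52, or 0.31 without WT4 and KO3. All 15 had KO3 as the highest KO array and WT4 as the lowest WT array, as had Krt7, Krt8, Krt18 and Krt19. Without WT4 and KO3, Krt19 differed by 0.44 ± 0.13 and Krt20 by 0.58 ± 0.14, and neither passed. The part of these cells in the keratin differences was not tested.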

How the data were processed

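The 8 samples and their groups were taken from the labels, and the series' design text calls the 4 WT and 4 KO samples biological replicates. Agilent Feature Extraction 10.7.3.1 made the scanner files, as their headers and the submitters' processing notes both state. From the deposited files, intensity was taken as median spot signals and local background medians, not normalized. Their log ratio is a log10 of processed red over green, per the file headers, and other columns hold flags of 0 or 1. The deposited series table held the same log10 ratios (r = 1 on each array, median 0).

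In R 4.3.3 with limma 3.58.1, background was removed with normexp at an offset of 50, and each array was normalized by loess with control spots at no weight. Readings marked as outliers were left out (0.372%), and no spot was saturated. Spots of a probe were averaged, and a probe was kept if well above background in red on at least 4 arrays. Accessions gave 27509 of 55681 probes a symbol (RefSeq, GRCm38.p6, names and order only). The kept probe with the brightest mean red signal stood for its gene. KO and WT were compared with lmFit and eBayes over 13982 genes, two-sided, with Benjamini-Hochberg adjustment at 0.05. The number of arrays limits the precision. On simulated data with the same number of genes, 92% of changes of 0.5 (log2) were found, with 9 false calls. Real genes can vary more, and Pck1, at 1.30 ± 0.33, did not pass. The 92% is therefore not the share of real changes found here, and a gene that did not pass may still differ.

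The members and lists were chosen with earlier results of these data known. Named were all members, up to 3 passing genes per list or the 2 with the lowest p, and the 3 most alike genes of Krt8, Krt18, Krt19 and Krt20; other list genes were named after their values were seen. Same-numbered samples deviated together (r = 0.137 to 0.373 for the 4 pairs), though the best match of KO1, KO3 and WT4 carried another number. The number is also the slide column on 8 of 8 arrays, so a pairing of samples and the slide position cannot be told apart. The number was a block in an alternative fit only, and the main fit was unpaired.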

Additional observations from a re-analysis of the deposited data

Results flagged for a closer look

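Among the 9 keratin probes, 18 groups of 4 arrays were examined for a single array far from the other 3, and chance marks about 1 group in 20. One stood out: Krt23 on KO4, with a log2 ratio of 0.30 where the other KO arrays lay between -0.15 and -0.12.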

How the results depend on the processing

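Calls depended on the settings more than the differences did. Across 23 alternatives, Krt19, Krt18 and Krt8 kept the sign of their difference in all, and Krt20, Krt15 and Krt23 in all but the red channel alone, where Krt20 differed by -0.039, Krt15 by -0.16 and Krt23 by 0.45, and where the median of all genes was 0.225. Krt7, near 0, kept its sign in 18. Without WT1 and KO1 the red channel alone gave 1.00 for Krt20. Against 296 genes called, limma called 125 with the scanner software's ratios, 0 with median centring (177 at an unadjusted p under 0.05), 1 with the red channel alone (105), 12 after sex was added as a term, 555 with the replicate block and 523 when WT1 and KO1 were also dropped from the blocked fit. Leaving out 1 array gave 83 to 345, and the count moved by over 1.5 times when KO4 (83), WT4 (133), KO2 (139), WT2 (150) or WT1 (189) was dropped. Of the keratins, 2 were called in the main comparison. None was called with the software's ratios, median centring, the red channel alone or sex as a term (4, 1, 0 and 3 at an unadjusted p under 0.05). In the same fits 1953, 177, 105 and 1655 of the 13982 genes had such a p. Counting every kept probe with or without a symbol left 1, and leaving out 1 array left 0 to 2. Krt18 joined with the block and without WT1 and KO1 (3 called). The block changed no other keratin call. In the comparison lists 6 genes were called, against 3 with the software's ratios, 0 with median centring, the red channel alone or sex as a term (13, 8 and 28 at an unadjusted p under 0.05), 15 with the block, 20 with the block and without WT1 and KO1, and 3 to 12 with 1 array left out. Of alternatives added after the data were seen, the red channel alone without WT1 and KO1 gave 140 genes and 2 keratins, median centring without them 10 genes, 0 keratins and 1 list gene, and leaving out WT4 and KO3 70 genes, 0 keratins and 3 list genes. At an unadjusted p under 0.05 these last 2 gave 2 and 3 keratins. The members were chosen with this contrast known, and nothing is read from the keratin counts. The causes were not tested. Krt5 was at background, and Krt15 and Krt20 were dim. The software's ratios gave 0.61 for Krt15 and 1.11 for Krt20.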
